A study of Mus musculus with 12 samples.

Results

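The liver response to dexamethasone in intact female mice was read from 6 libraries, 3 from females given dexamethasone at 1 mg/kg and 3 from females given PBS vehicle, out of 12 libraries in all. All 6 came from wild-type C57BL/6 females with their ovaries in place, and livers were taken 6 h after treatment. The other 6 libraries came from ovariectomized females of the same strain and genotype, 3 given dexamethasone and 3 given vehicle, and they enter here where the response of the intact females was set against theirs. The labels give no age, and do not say that the libraries of a group came from separate animals, and p-values here therefore reflect the variation among these libraries, which may be technical. Members were chosen by label: the columns of intact females in the deposited table of log2 expression values, with 1 entry per gene symbol and only genes whose mean over the 12 libraries was at least 4, which left 12965 genes of 24033 symbols.

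Dexamethasone is a synthetic glucocorticoid. It enters cells and binds the glucocorticoid receptor, a nuclear receptor held in the cytosol by heat shock chaperones, which then moves to the nucleus, binds DNA at glucocorticoid response elements and raises or lowers the transcription of nearby genes. In liver the receptor is known for raising enzymes of glucose and amino acid metabolism and for restraining inflammatory genes, and it resets the circadian clock. Whole liver was sequenced, so the values mix hepatocytes with other liver cells; fewer cells of a type and less RNA per cell cannot be told apart.

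The first principal component, with 49.9% of the variance, separated dexamethasone from vehicle libraries. Library medians over the genes tested were 8.82 to 8.86 on the log2 scale. Read depth cannot be read from these values, so no counting interval is given. Dexamethasone replicate 2 lay nearest to the vehicle libraries of the 3 dexamethasone libraries for 99 of the 135 genes that rose at least 2-fold and for 109 of the 178 that fell at least 2-fold. All 10 hepatocyte markers were measured, and their summed level was 22.28 to 22.39 in the dexamethasone libraries, against 22.49 to 22.6 in the vehicle libraries. The most abundant members weigh most in that sum. Averaged on the log2 scale relative to the vehicle mean, the 10 stood at 0.07, -0.01 and 0.12 in the dexamethasone libraries. The vehicle libraries stood at -0.03 to 0.04. By the rule given below, 3 of the 10 rose (1 without dexamethasone replicate 3 or vehicle replicate 2) and 1 fell. Below, a level is the deposited log2 value, a change is the log2 fold change of dexamethasone over vehicle ± SE from limma (n = 3 libraries per group), and "rose" or "fell" means a Benjamini-Hochberg adjusted p under 0.05 over all genes tested. By that rule 22.8% of the genes rose and 25.9% fell, 48.8% in all; 1.04% rose and 1.37% fell by at least 2-fold, 2.41% in all. The 3 dexamethasone libraries did not overlap the 3 vehicle libraries for 55.5% of genes, lying above them for 26.9% and below them for 28.6%. Each count of a gene list below is to be read against these shares. Where a list count is 0, limma at an unadjusted p under 0.05 also gave 0, except for 2 higher complement and coagulation genes and for 1 higher and 1 lower T and NK cell marker.

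Genes listed as known targets of the receptor rose in larger share than genes at large. The list was chosen with earlier results of these data known, so this share is a description only. Of 30 known glucocorticoid receptor targets measured, 19 rose and 2 fell, with a median change of 0.75 (0.00 over all genes tested). Fkbp5 (Entrez 14229), the immunophilin that lowers the receptor's affinity for hormone, had levels of 12.53, 12.2 and 13.07 in the dexamethasone libraries, against 11.37, 11.57 and 11.03 in the vehicle libraries. The groups did not overlap, and the change was 1.28 ± 0.22, adjusted p = 0.000591. Mt1 (Entrez 17748), a metal-binding metallothionein, had levels of 15.24, 14.63 and 15.58 in the dexamethasone libraries, against 13.53, 13.9 and 13.37 in the vehicle libraries, a 2.93-fold rise. The related Mt2 had 13.22, 12.52 and 14.02, against 11.92, 12.15 and 11.72, a change of 1.32 ± 0.31; 73.5% of its exon sequence overlaps that of another gene, so its reads may not be separable. Errfi1, an inhibitor of the epidermal growth factor receptor, rose by 1.15 ± 0.25, although its vehicle replicate 1 stood at 14.02 against 12.94 and 12.98 in the other vehicle libraries. The transcription factor genes Zbtb16 and Cebpd rose by 1.31 ± 0.3 and 1.05 ± 0.22. Not all listed targets passed the test: Klf9 stood at -0.11 (adjusted p = 0.547), Pdk4 at -0.19 (adjusted p = 0.49) and Pck1, the gluconeogenic enzyme, at -0.2 (adjusted p = 0.424). Rgs16, a brake on G protein signalling, fell by 1.41 ± 0.34, with levels of 9.69, 10.3 and 9.44 in the dexamethasone libraries, against 11.61, 11.33 and 10.73 in the vehicle libraries.

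**Figure D1:**
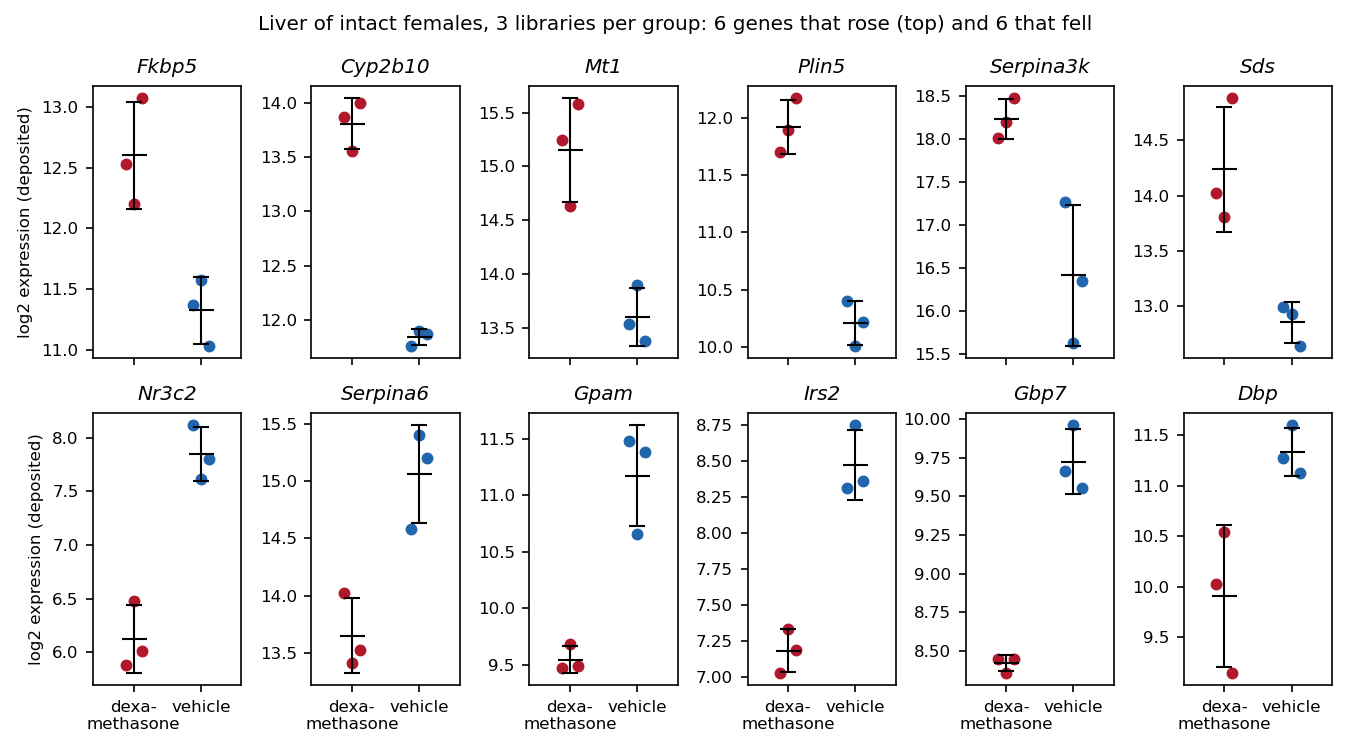
Deposited log2 expression in each of the 3 dexamethasone (red, left) and 3 vehicle (blue, right) libraries of intact females for 12 genes, 6 that rose (top) and 6 that fell (bottom); points are libraries, bars the mean and SD. The groups do not overlap for any of the 12, and Serpina3k and Gpam show 1 vehicle library nearer to the dexamethasone group than the other vehicle libraries.

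The genes of hormone reception and supply moved the other way. Of the 24 genes of the receptor's machinery measured, 5 rose and 11 fell. Nr3c1 (Entrez 14815), the glucocorticoid receptor gene, had levels of 10.74, 10.83 and 10.85 in the dexamethasone libraries, against 11.44, 11.35 and 11.35 in the vehicle libraries, 1.49-fold lower (change -0.57 ± 0.054, adjusted p = 1.44e-05). Nr3c2 (Entrez 110784), the mineralocorticoid receptor, which also binds glucocorticoids, had 5.88, 6.48 and 6.01 in the dexamethasone libraries, against 8.12, 7.62 and 7.8 in the vehicle libraries, 3.3-fold lower. Serpina6 (Entrez 12401), which encodes corticosteroid-binding globulin, the carrier of glucocorticoid in blood, had 14.02, 13.41 and 13.53 in the dexamethasone libraries, against 14.58, 15.4 and 15.2 in the vehicle libraries, 2.66-fold lower. All dexamethasone libraries were below all vehicle libraries for these 3 genes. Hsd11b1, the enzyme that regenerates active glucocorticoid inside the liver cell, fell by 0.43 ± 0.099, and Akr1d1, which reduces glucocorticoids and bile acid precursors, fell by 0.58 ± 0.11. Of 9 chaperone genes of the receptor, 4 rose, Fkbp5 among them, and 2 fell (1 without dexamethasone replicate 3 or vehicle replicate 3). Ptges3 (p23) rose by 0.5 ± 0.051, while Hsp90ab1 fell by 0.28 ± 0.066. Among coregulators, Ncoa2 and Ncor1 fell by 0.45 ± 0.057 and 0.38 ± 0.073.

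A glucocorticoid response element pairs the half-sites AGAACA and TGTTCT 3 bases apart; a relaxed form keeps the letters GNACA and TGTNC at the same spacing. RefSeq promoters (GRCm38.p6, 250 bases before to 50 after the gene start) were found for 10328 of the genes tested, and were searched on both strands; every full element also meets the relaxed form. The relaxed form was in 0.387% of these promoters, in 3.96% of those of the genes that rose at least 2-fold (4 of 101) and in 0% of those that fell at least 2-fold (0 of 137). The 4 stretches are shown because they carry all of those matches, with the relaxed element in capitals:
Mt1, chr8:94178955-94179047, + strand: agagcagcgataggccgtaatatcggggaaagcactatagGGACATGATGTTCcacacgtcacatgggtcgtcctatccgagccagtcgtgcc
Fam107a, chr14:8309845-8309937, - strand: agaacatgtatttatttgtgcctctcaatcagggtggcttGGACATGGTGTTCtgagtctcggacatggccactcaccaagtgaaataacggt
Map3k6, chr4:133240597-133240689, + strand: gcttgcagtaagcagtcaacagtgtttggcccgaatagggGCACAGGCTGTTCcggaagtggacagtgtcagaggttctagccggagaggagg
Atp6v0a4, chr6:38124537-38124591, - strand: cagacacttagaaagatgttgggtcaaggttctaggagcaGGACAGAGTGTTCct
A match is a description of letters, not of binding, and most response elements are known to lie outside promoters. Fam107a, an actin-associated protein, had levels of 10.25, 9.2 and 10.87 in the dexamethasone libraries, against 6.39, 6.36 and 6.4 in the vehicle libraries, with a change of 3.72 ± 0.34. Map3k6, a kinase of the stress pathway upstream of JNK and p38, had 7.51, 6.9 and 8.23, against 6.4, 5.83 and 6.17 and rose by 1.41 ± 0.28. Atp6v0a4, a subunit of the vacuolar proton pump, had 5.68, 5.07 and 5.47, against 3.91, 4.11 and 3.93 and rose by 1.42 ± 0.23. In all 4, dexamethasone libraries lay above vehicle libraries without overlap.

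The largest rises and the rises with the largest test statistics named a wide range of liver functions. Tff3, a trefoil peptide of mucosal surfaces and a marker of bile duct cells, had the largest rise of all, with levels of 8.63, 7.4 and 10.51 in the dexamethasone libraries, against 5.27, 5.02 and 5.03 in the vehicle libraries, 13.4-fold higher, and its dexamethasone libraries spread over more than 3 log2 units. Of the 12 bile duct cell markers measured, Tff3 among them, 2 rose and 3 fell. Their summed levels overlapped, at 12.2 to 12.57 in the dexamethasone libraries and 12.28 to 12.39 in the vehicle libraries. Treh, which splits trehalose, had 7.31, 6.82 and 7.65, against 4.84, 4.87 and 4.88, 5.27-fold higher. Cyp2b10 (Entrez 13088), a cytochrome P450 that is the classical target of the receptor CAR, had levels of 13.87, 13.55 and 14.0 in the dexamethasone libraries, against 11.76, 11.9 and 11.87 in the vehicle libraries, 3.91-fold higher (adjusted p = 2.23e-06). Nnmt, which methylates nicotinamide, had 12.75, 12.63 and 13.38, against 11.13, 11.44 and 10.87, 3.41-fold higher. Scara5, a ferritin receptor, had 5.64, 5.01 and 5.98, against 3.92, 3.76 and 3.75, and Ctgf, a matricellular growth factor, 9.3, 8.63 and 9.92, against 7.61, 7.49 and 7.25. Greb1, known in mammary cells as an oestrogen-induced gene, had 5.86, 5.28 and 5.74, against 3.92, 3.91 and 3.89. Each of these groups was clear of the other. Smaller rises with large test statistics include Leap2 (Entrez 259301), a liver peptide that blocks the ghrelin receptor, with 10.9, 11.02 and 10.81, against 9.7, 9.46 and 9.62 and a change of 1.32 ± 0.083. Htra3, a secreted serine protease, rose by 1.6 ± 0.11, Crip2, a LIM domain protein, by 1.03 ± 0.067, Dnmt3b, a de novo DNA methyltransferase, by 1.04 ± 0.068, and Tango2 by 1.05 ± 0.07. Ctgf is uncertain, because 23.2% of its exon sequence overlaps another gene and the library kit that the labels name does not mark strand.

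The largest fall was that of Acot3, an acyl-CoA thioesterase of peroxisomes, with levels of 9.93, 10.16 and 9.7 in the dexamethasone libraries, against 12.61, 13.18 and 12.66 in the vehicle libraries, 7.39-fold lower. Gbp10, an interferon-induced GTPase, had 6.22, 6.54 and 6.19, against 8.64, 9.02 and 8.56, Dsg1c, a desmosomal cadherin, 5.81, 5.55 and 5.72, against 7.25, 8.38 and 7.98, and Abcb1a, a drug efflux pump, 6.81, 6.89 and 6.83, against 8.8, 8.9 and 8.9. Another gene holds 82.5% of the 50-base words of Gbp10, whose values are therefore uncertain, and it is 29.6% for Dsg1c, 18.9% for Acot3 and 17% for Abcb1a. Osgin1 (Entrez 71839), an oxidative stress-induced growth inhibitor, had 10.96, 11.11 and 10.57, against 12.36, 12.6 and 12.84, 3.29-fold lower, and Tnfrsf19, a member of the tumour necrosis factor receptor family, 6.65, 6.87 and 6.27, against 8.0, 8.43 and 8.4. Smaller falls with large test statistics include Slc16a12 (Entrez 240638), a creatine transporter, with 10.4, 10.36 and 10.36, against 11.63, 11.61 and 11.62; its adjusted p of 3.91e-08 was among the lowest of all genes. Ndst1, which sulfates heparan chains, had 10.31, 10.38 and 10.23, against 11.85, 11.67 and 11.86, Abca3, a lipid transporter, 10.4, 10.45 and 10.37, against 11.54, 11.45 and 11.59, and St6gal1, which sialylates secreted glycoproteins, 10.35, 10.3 and 10.36, against 11.48, 11.51 and 11.57. In every one of these the vehicle libraries were all above the dexamethasone libraries. Dsg2, another desmosomal cadherin, fell by 1.03 ± 0.051, Rnf24, a ubiquitin ligase, by 1.67 ± 0.11, and Ncald, a neuronal calcium sensor, by 1.59 ± 0.12.

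**Figure D2:**
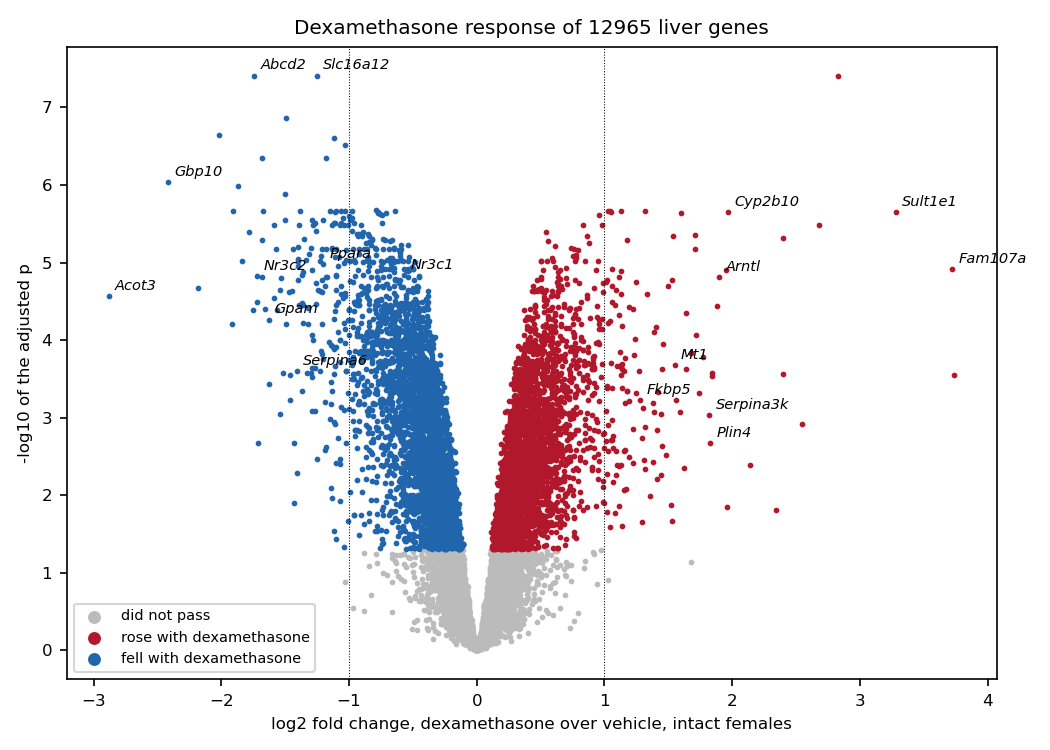
Each of 12965 genes by its log2 fold change of dexamethasone over vehicle in intact females (horizontal) and the -log10 of its adjusted p from limma (vertical); red genes rose, blue genes fell, grey genes did not pass, and dotted lines mark 2-fold. Of 6323 genes that passed, 313 changed by at least 2-fold, so most changes were smaller.

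The most abundant messages changed too, mostly downwards. Of the 200 genes with the highest mean level, which is not scaled to transcript length, 37 rose and 85 fell, 6 and 4 of them by at least 2-fold. Serpina3k (Entrez 20714), a protease inhibitor of plasma, had levels of 18.01, 18.2 and 18.47 in the dexamethasone libraries, against 17.26, 15.62 and 16.35 in the vehicle libraries, 3.52-fold higher, with vehicle levels spread over more than 1 log2 unit. Bhmt, which remethylates homocysteine with betaine, had 16.47, 16.24 and 16.47, against 15.16, 15.09 and 15.3. Saa4, a constitutive serum amyloid protein, had 14.61, 14.54 and 14.66, against 13.49, 13.55 and 13.45. These 3 genes were higher in every dexamethasone library. Pzp, the pregnancy zone protein, a broad protease inhibitor of plasma, had 16.43, 16.36 and 16.46, against 17.4, 17.36 and 17.37, a change of -0.96 ± 0.084. Ces1d, a carboxylesterase that mobilizes stored triglyceride, had 13.69, 13.78 and 13.71, against 14.98, 14.82 and 15.02, and Inmt, an indolethylamine methyltransferase, 14.78, 14.76 and 14.5, against 15.26, 15.89 and 15.8. Both were lower in every dexamethasone library.

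In glucose metabolism, gluconeogenesis and glycogen genes changed both ways, and most insulin signalling genes fell. Of 24 gluconeogenesis genes, 8 rose and 4 fell (10 fell with library weights, limma's estimate of each library's precision). Got1, the cytosolic aspartate aminotransferase, rose by 1.06 ± 0.22, G6pc, glucose-6-phosphatase, by 0.68 ± 0.2, Slc37a4, its glucose 6-phosphate transporter, by 0.61 ± 0.075, and Pck2, the mitochondrial PEP carboxykinase, by 0.52 ± 0.11. The fructose bisphosphatase gene Fbp1 fell by 0.6 ± 0.073. Of 13 insulin signalling genes, 0 rose and 9 fell. Irs2 (Entrez 384783), the insulin receptor substrate that fasting raises, had 7.03, 7.33 and 7.19 in the dexamethasone libraries, against 8.31, 8.75 and 8.36 in the vehicle libraries, 2.45-fold lower. Irs1, its partner, fell by 0.82 ± 0.12 (30.9% of its exon sequence overlaps another gene), and the insulin-activated kinase genes Akt1 and Akt2 by 0.51 ± 0.093 and 0.39 ± 0.056. Of 11 glycogen genes, 1 rose and 5 fell: Gys2, the liver glycogen synthase, fell by 1.04 ± 0.094 and Ugp2, which makes UDP-glucose, by 0.8 ± 0.089, while Ppp1r3b, which targets a phosphatase to glycogen, rose by 0.81 ± 0.22.

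Most urea cycle genes rose. Genes of amino acid breakdown rose in a share near that of all genes tested, and fell in a smaller share. Of 8 urea cycle genes, 5 rose and 2 fell. The ornithine carrier Slc25a15 rose by 1.04 ± 0.12, argininosuccinate lyase Asl by 0.95 ± 0.084 and arginase Arg1 by 0.56 ± 0.14, while ornithine transcarbamylase Otc fell by 0.45 ± 0.072. Of 36 amino acid catabolism genes, 9 rose and 6 fell (3 fell without vehicle replicate 1, and 17 rose under quantile normalization). Sds, serine dehydratase, had 14.02, 13.81 and 14.88 in the dexamethasone libraries, against 12.99, 12.93 and 12.64 in the vehicle libraries, 2.61-fold higher. Tat, tyrosine aminotransferase and a classical glucocorticoid-induced enzyme, rose by 0.83 ± 0.25 (adjusted p = 0.0157 by limma, 0.0564 without dexamethasone replicate 3 and 0.0501 without vehicle replicate 2). Tdo2, tryptophan dioxygenase, rose by 1.13 ± 0.11, and Aass, of lysine breakdown, by 0.8 ± 0.11. Of 18 amino acid transporters, 3 rose and 3 fell: Slc1a5 rose by 1.14 ± 0.14 and Slc43a1 by 0.91 ± 0.13, and Slc38a3, a glutamine carrier, fell by 0.8 ± 0.11.

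More genes of fatty acid oxidation and synthesis fell than rose. Lipid droplet and lipase genes rose and fell in shares near those of all genes tested. Of 46 genes of fatty acid oxidation and the receptor PPARalpha, 2 rose and 23 fell, with a median change of -0.21; 1 rose without dexamethasone replicate 1, dexamethasone replicate 3 or vehicle replicate 2, and 8 with library weights. Ppara itself (Entrez 19013) had 12.51, 12.48 and 12.29 in the dexamethasone libraries, against 13.63, 13.56 and 13.67 in the vehicle libraries. Cpt1a, which admits fatty acids to mitochondria, had 13.59, 13.59 and 13.48, against 14.14, 14.12 and 14.11. The groups did not overlap for either gene, and Hadha, of the mitochondrial trifunctional protein, fell by 0.48 ± 0.076. The known PPARalpha targets Cyp4a10, Cyp4a14 and Fgf21 stood at 0.39, 0.4 and 0.94 (adjusted p = 0.109, 0.17 and 0.138). With limma on the 6 intact libraries alone these 3 passed as rises (adjusted p = 0.0103, 0.0199 and 0.047), and over all alternatives tried Cyp4a10 passed in 5, Cyp4a14 in 2 and Fgf21 in 2.

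Gpam (Entrez 14732), the first enzyme of triglyceride synthesis, had 9.47, 9.68 and 9.49 in the dexamethasone libraries, against 11.48, 10.66 and 11.38 in the vehicle libraries, 3.09-fold lower. Lpin1, the phosphatidate phosphatase later in that pathway, had 13.27, 12.63 and 13.91, against 12.26, 11.34 and 11.44, 3.01-fold higher. Of 15 fatty acid synthesis genes, 1 rose and 6 fell (10 fell without vehicle replicate 2, and 0 rose without dexamethasone replicate 1 or 3 or vehicle replicate 1 or 2), and Srebf1, their master regulator, had 12.67, 12.61 and 12.18, against 13.48, 13.96 and 13.94. The desaturase Fads2 fell by 1.22 ± 0.17 and the elongase Elovl6 by 1.11 ± 0.21. Fasn, fatty acid synthase, stood at -0.79 (adjusted p = 0.0567 by limma, and 0.0401 and 0.00452 without dexamethasone replicate 1 and vehicle replicate 2). Fasn also passed as a fall with library weights and with the replicate number as a block (adjusted p = 0.00828 and 0.0281 by limma). Of 16 droplet and lipase genes, 3 rose and 4 fell. On the droplet, Plin4 had 10.17, 9.75 and 10.86, against 8.66, 8.19 and 8.45 and Plin5, which ties droplets to mitochondria, 11.7, 11.89 and 12.17, against 10.4, 10.01 and 10.22. Both were higher in every dexamethasone library, by 3.55-fold and 3.28-fold, and Pnpla2, the triglyceride lipase of the droplet, rose by 0.79 ± 0.066. Plin2, the main droplet coat protein of hepatocytes, fell by 0.92 ± 0.32 (adjusted p = 0.0329 by limma, and 0.0912 to 0.104 without any 1 of replicates 1 and 3 of either intact group). Of 18 apolipoprotein and assembly genes, 7 rose and 3 fell: Apoa1 rose by 0.7 ± 0.13 and Apoc3 by 0.72 ± 0.081, while Apob, the core protein of very low density lipoprotein, fell by 0.63 ± 0.086.

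More genes of cholesterol handling and of bile acid transport fell than rose, and bile acid synthesis enzymes changed both ways. Of 32 cholesterol genes, 2 rose and 17 fell; the 17 include all 8 uptake and transport genes measured. Abcg5 and Abcg8, the sterol efflux pair, fell by 0.93 ± 0.098 and 1.39 ± 0.1. Insig2, which holds the sterol sensor in the endoplasmic reticulum, had 12.58, 12.78 and 13.27 in the dexamethasone libraries, against 11.49, 11.22 and 11.41 in the vehicle libraries, 2.84-fold higher, whereas Insig1 fell by 0.85 ± 0.17. Of 11 bile acid transport genes, 0 rose and 8 fell, and 4 fell with the length and GC trend removed. Abcc2, the canalicular pump of conjugated anions, had 12.81, 12.74 and 12.88, against 13.89, 13.71 and 13.77, Abcb11, the bile salt export pump, fell by 0.36 ± 0.097 (adjusted p = 0.00949 by limma, 0.0617 with the length and GC trend removed), and Slc10a1, the sodium-dependent uptake carrier, stood at -0.25 (adjusted p = 0.184 by limma, with -0.4 and 0.0328 without dexamethasone replicate 2, and -0.31 and 0.00894 with library weights). Of 11 synthesis genes, 4 rose and 4 fell, with Cyp8b1, which directs synthesis to cholic acid, rising by 1.16 ± 0.16 and Cyp27a1 by 0.64 ± 0.086. Of 26 carriers of organic ions, 1 rose and 14 fell (0 rose without dexamethasone replicate 1 or 2 or vehicle replicate 2); Slc22a26 fell by 1.68 ± 0.13.

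Listed cytochrome P450 genes of families 1 to 3 fell or did not pass, except Cyp2b10. Of 40 measured in families 1 to 3, it was the 1 that rose, and 19 fell; 2 rose without dexamethasone replicate 3 and 3 without vehicle replicate 1. Its relatives Cyp2b13 and Cyp2b9 fell by 1.25 ± 0.28 and 0.79 ± 0.2, and Cyp2c29, of retinoid and drug oxidation, by 0.65 ± 0.1. Cyp3a11, a target of the receptor PXR, stood at -0.05 (adjusted p = 0.681). Nr1i3, which encodes CAR, fell by 0.87 ± 0.2, though 74.9% of its exon sequence overlaps another gene; Nr1i2, which encodes PXR, stood at -0.08 (adjusted p = 0.43). Cyp2a5 and Cyp2a4, near-identical P450 genes that can share reads (40.8% and 38% of their 50-base words occur in another gene), fell by 1.2 ± 0.17 and 1.15 ± 0.21. Of 44 conjugation enzymes, 10 rose and 19 fell. Sult1e1, which inactivates oestrogens by sulfation, had levels of 8.95, 8.17 and 9.2 in the dexamethasone libraries, against 5.53, 5.5 and 5.45 in the vehicle libraries, and Sult1d1 had 13.84, 13.73 and 13.91, against 12.75, 12.76 and 12.57. Both were higher in every dexamethasone library. Ugt1a1, which conjugates bilirubin, had 11.43, 11.69 and 11.34, against 13.18, 13.16 and 13.15, 3.2-fold lower. The genes of its locus share their last exons (82.7% of its exon sequence overlaps another gene), so its change may not be that of a single enzyme. Ugt1a6a and Ugt1a9, of the same locus, changed by -1.11 and -1.36. Of 24 genes known to be higher in female than in male liver, 2 rose and 12 fell (median change -0.68). Without dexamethasone replicate 2, vehicle replicate 2 or vehicle replicate 3, 0 of them rose, and without dexamethasone replicate 3, 1 rose. Of 24 higher in males, 2 rose and 3 fell (1 rose without vehicle replicate 2, and 7 fell with library weights). In the growth hormone axis, Ghr, the hormone's receptor, fell by 0.77 ± 0.082, and Igf1 stood at -0.12 (adjusted p = 0.352).

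**Figure D3:**
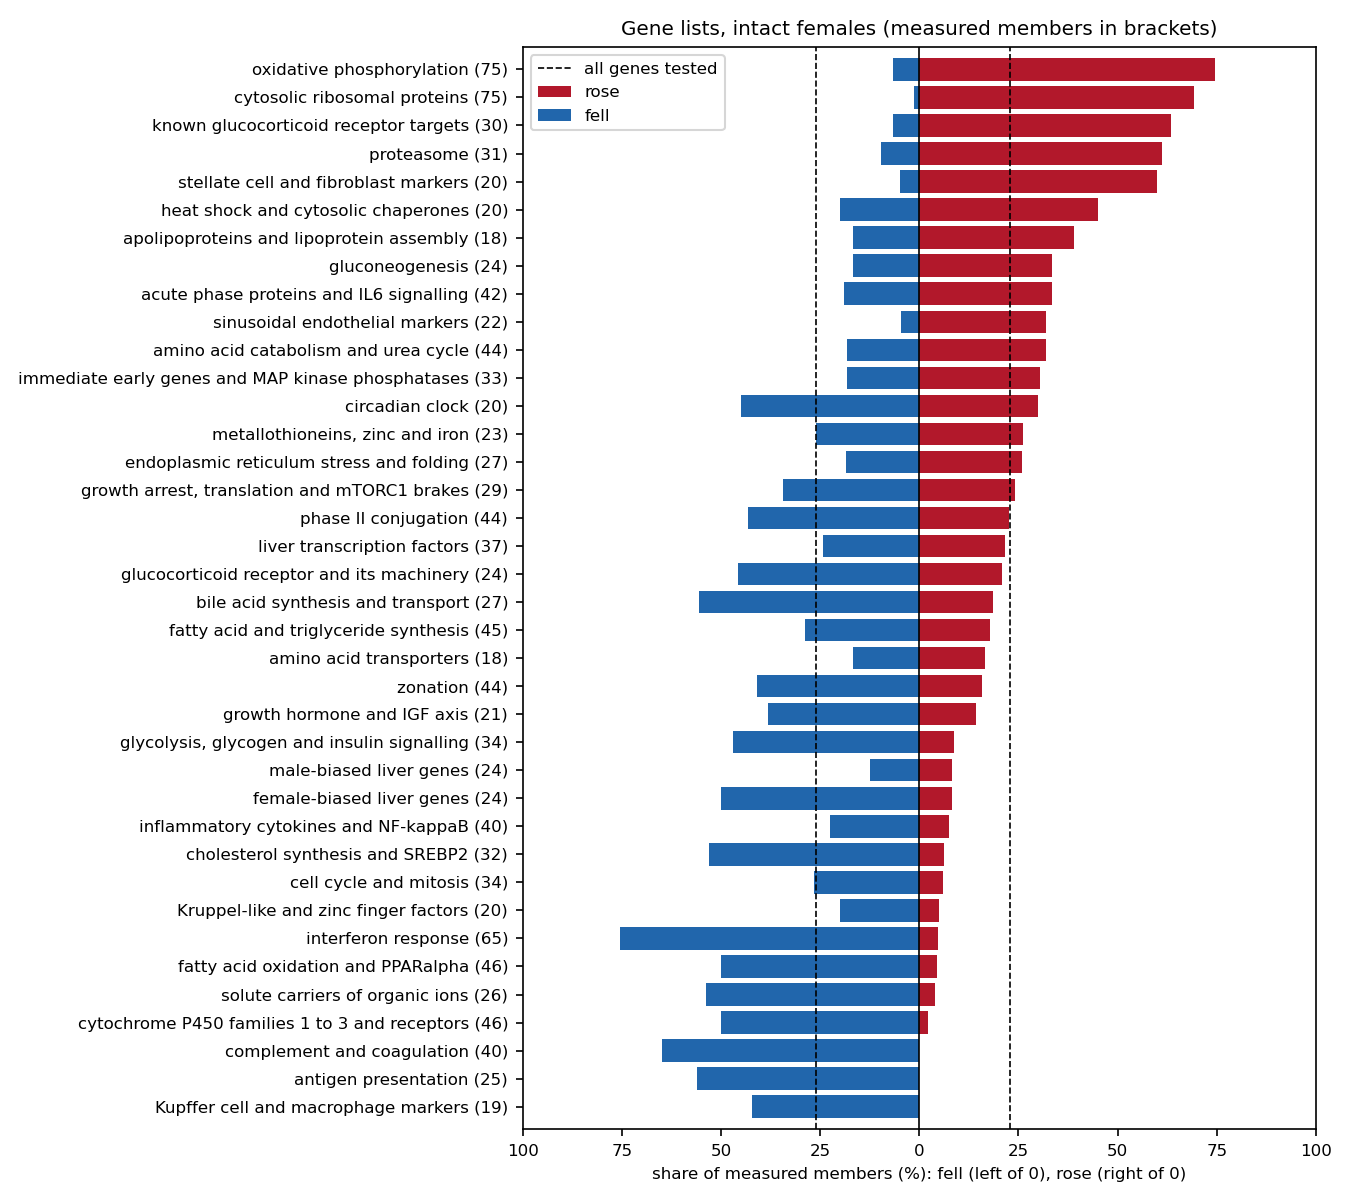
Share of the measured members of each gene list with 18 or more measured that rose (red, right of 0) or fell (blue, left of 0) with dexamethasone in intact females; dashed lines mark the shares over all genes tested, 22.8% and 25.9%, and the number measured is in brackets. Respiratory, ribosomal, receptor target and proteasome genes stand at the top, and complement, antigen presentation and interferon genes extend to the left.

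Clock genes changed in both directions. Of 20 measured, 6 rose and 9 fell. Arntl (Entrez 11865), which encodes the activator BMAL1, had 8.14, 7.43 and 8.3 in the dexamethasone libraries, against 5.99, 6.0 and 6.18 in the vehicle libraries, 3.74-fold higher, and its partner Clock had 10.13, 9.98 and 10.29, against 9.51, 9.18 and 9.4. Among repressors, Per1 had 10.97, 10.64 and 11.2, against 10.62, 10.2 and 10.06 and Ciart 9.95, 9.68 and 10.07, against 9.09, 8.63 and 8.44, both higher in every library, while Per3 fell by 1.04 ± 0.19. Nr1d1, which encodes REV-ERBalpha, the repressor of Arntl, fell by 0.73 ± 0.22; its adjusted p was 0.0181 by limma, and 0.0585 to 0.0656 without dexamethasone replicate 3, vehicle replicate 1 or vehicle replicate 2. Dbp, the output factor that binds D-boxes, had 10.03, 10.54 and 9.15, against 11.27, 11.6 and 11.13, 2.69-fold lower. The D-box letters TTATGNAA were in 2.79% of promoters, in 8.03% of those that fell at least 2-fold (11 of 137) and in 2.97% of those that rose at least 2-fold (3 of 101). Shown with the match in capitals are 3 falling genes and Cyp2b10, which rose:
Osgin1, chr8:119437030-119437097, + strand: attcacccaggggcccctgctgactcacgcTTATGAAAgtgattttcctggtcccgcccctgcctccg
Slc16a12, chr19:34747367-34747434, - strand: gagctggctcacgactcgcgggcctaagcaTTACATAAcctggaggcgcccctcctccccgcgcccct
Cyp2a5, chr7:26835238-26835305, + strand: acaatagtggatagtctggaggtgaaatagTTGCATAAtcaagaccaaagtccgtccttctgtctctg
Cyp2b10, chr7:25897570-25897637, + strand: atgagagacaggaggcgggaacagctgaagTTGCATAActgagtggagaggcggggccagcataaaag

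Most interferon genes fell. Of 65 measured, 3 rose and 49 fell, with a median change of -0.53. Averaged over its 65 members relative to the vehicle mean, the list stood at -0.53, -0.51 and -0.60 in the dexamethasone libraries, against -0.03, 0.06 and -0.03 in the vehicle libraries. Among guanylate-binding and immunity-related GTPases, Irgm2 had 9.27, 9.3 and 9.3 in the dexamethasone libraries, against 10.61, 11.28 and 10.57 in the vehicle libraries, and Gbp7 had 8.45, 8.36 and 8.45, against 9.66, 9.96 and 9.55. Gbp2 had 7.38, 7.29 and 7.29, against 8.23, 9.07 and 8.22, and its vehicle replicate 2 was the highest, as it was for Irgm2 and Gbp7; the groups did not overlap for any of the 3. Zbp1, a sensor of viral nucleic acid, had 7.35, 7.36 and 7.56, against 8.67, 9.61 and 8.96, and Ifit1, which binds viral RNA, 7.63, 7.59 and 7.34, against 8.77, 8.56 and 8.63. Against the rest, Isg20, an exonuclease that degrades viral RNA, rose by 0.55 ± 0.12.

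The interferon-stimulated response element, searched as GAAANNGAAA on both strands, was in 53.3% of the 45 interferon genes with a promoter, against 3.81% of all promoters searched, 9.49% of those that fell at least 2-fold and 7.92% of those that rose at least 2-fold. The gamma-activated site, TTCNNNGAA, was in 35.6% of the interferon genes and 8.41% of all promoters. The list was drawn from genes known to respond to interferon, so the motif shares describe the list and not the response to dexamethasone. The stretches of 5 members that fell by at least 2-fold are shown, with the element in capitals on either strand:
Irgm2, chr11:58214883-58214952, + strand: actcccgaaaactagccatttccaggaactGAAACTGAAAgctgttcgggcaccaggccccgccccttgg
Igtp, chr11:58199492-58199561, + strand: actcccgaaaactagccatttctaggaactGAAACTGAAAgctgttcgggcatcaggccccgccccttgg
Gbp7, chr3:142530253-142530322, + strand: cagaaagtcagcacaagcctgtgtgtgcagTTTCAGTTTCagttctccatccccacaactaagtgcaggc
Gbp2, chr3:142620574-142620643, + strand: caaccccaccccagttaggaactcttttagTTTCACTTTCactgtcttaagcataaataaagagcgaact
Ifit1, chr19:34640755-34640843, + strand: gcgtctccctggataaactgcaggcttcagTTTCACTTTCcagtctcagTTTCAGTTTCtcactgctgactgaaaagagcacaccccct
The stretches of Irgm2 and Igtp differ at 2 of 70 bases, and Ifit1 holds 2 elements.

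Among other immune genes of the liver, those of antigen presentation, complement and coagulation fell in larger share than the 25.9% of all genes tested. Acute phase proteins and cytokine and NF-kappaB genes did not, at 12.5% and 22.5%. Of 25 antigen presentation genes, 0 rose (1 without vehicle replicate 2) and 14 fell, among them the peptide transporter subunit Tap1 (fell by 0.59 ± 0.13) and the immunoproteasome subunit Psmb9 (fell by 0.69 ± 0.14), while B2m, the light chain of class I molecules, stood at 0.0 (adjusted p = 0.993). Of 40 complement and coagulation genes, 0 rose (1 without dexamethasone replicate 3 or vehicle replicate 1) and 26 fell, with a median change of -0.31. C3, the central complement protein, had 17.6, 17.7 and 17.79 in the dexamethasone libraries, against 18.39, 18.49 and 18.39 in the vehicle libraries, Masp1, which starts the lectin pathway, 9.63, 9.73 and 9.77, against 11.08, 10.6 and 10.84, and the clotting cofactor F5 13.16, 13.17 and 12.93, against 14.14, 14.02 and 14.09. All 3 were lower in every dexamethasone library. Of 32 acute phase proteins, 12 rose and 4 fell: Lcn2, Saa1 and Orm3 rose by 2.68 ± 0.2, 1.64 ± 0.24 and 1.44 ± 0.26, Hp, haptoglobin, by 0.87 ± 0.15, and Itih4 and the fibrinogen chain Fga fell by 0.84 ± 0.094 and 0.61 ± 0.11. 31.7% of the 50-base words of Saa1 occur in another gene. Of 10 genes of interleukin 6 signalling and related receptors, 2 rose and 4 fell, with Jak2 and Stat3 among the 4. The share that fell was 40%, but only 2 fell without dexamethasone replicate 1 or vehicle replicate 1. The 2 that rose were the receptor genes Osmr, by 1.06 ± 0.17, and Il1r1, by 0.92 ± 0.2. Of 40 cytokine and NF-kappaB genes, 3 rose and 9 fell (5 fell without dexamethasone replicate 3 or vehicle replicate 2); Nfkbia, the inhibitor of NF-kappaB and a known target of the receptor, stood at -0.11 (adjusted p = 0.395).

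Genes of protein synthesis and respiration rose by small amounts in large numbers. Of 75 cytosolic ribosomal protein genes, 52 rose and 1 fell, with a median change of 0.37 and a highest change of 0.69 (Rpl10a). Averaged over the 75 relative to the vehicle mean, the dexamethasone libraries stood at 0.32, 0.28 and 0.44, against -0.02, 0.13 and -0.11 in the vehicle libraries. Of 75 oxidative phosphorylation genes, 56 rose and 5 fell, with a median change of 0.30; the dexamethasone libraries averaged 0.27, 0.28 and 0.25, against -0.04, 0.04 and 0.00. Cycs, cytochrome c, rose by 0.86 ± 0.091, Ndufa5 of complex I by 0.6 ± 0.053 and Atp5l of the ATP synthase by 0.56 ± 0.082, whereas Sdha, of complex II, and Ndufs1, of complex I, fell by 0.45 ± 0.052 and 0.29 ± 0.048. Of 31 proteasome genes, 19 rose and 3 fell. Many ribosomal protein genes have processed copies that can share reads, among them Rpl10a (25.4% of its 50-base words) and Rps10 (51.8%).

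Transcript length moved with these changes. Spearman's rho between the change and transcript length was -0.245 across all genes, a description only, since genes are not independent. In the decile of genes with the shortest transcripts, up to 1384 bases, the median change was 0.17, 41.8% rose and 8.14% fell; in the decile with the longest, from 6708 bases, it was -0.15, 11.6% rose and 41.3% fell. The median transcript length was 1059 bases for the ribosomal protein genes and 1231 bases for the respiratory genes, of which the members that rose had a median of 922 bases and those that fell 2661 bases. With each library's trend on length and GC content removed, 40 ribosomal genes rose and 2 fell, 45 respiratory genes rose and 10 fell, and 11 proteasome genes rose and 4 fell. On the same scale 47 interferon genes fell and 3 rose, and 27 complement and coagulation genes fell and 1 rose. The part of transcript length in the changes was not tested.

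**Figure D4:**
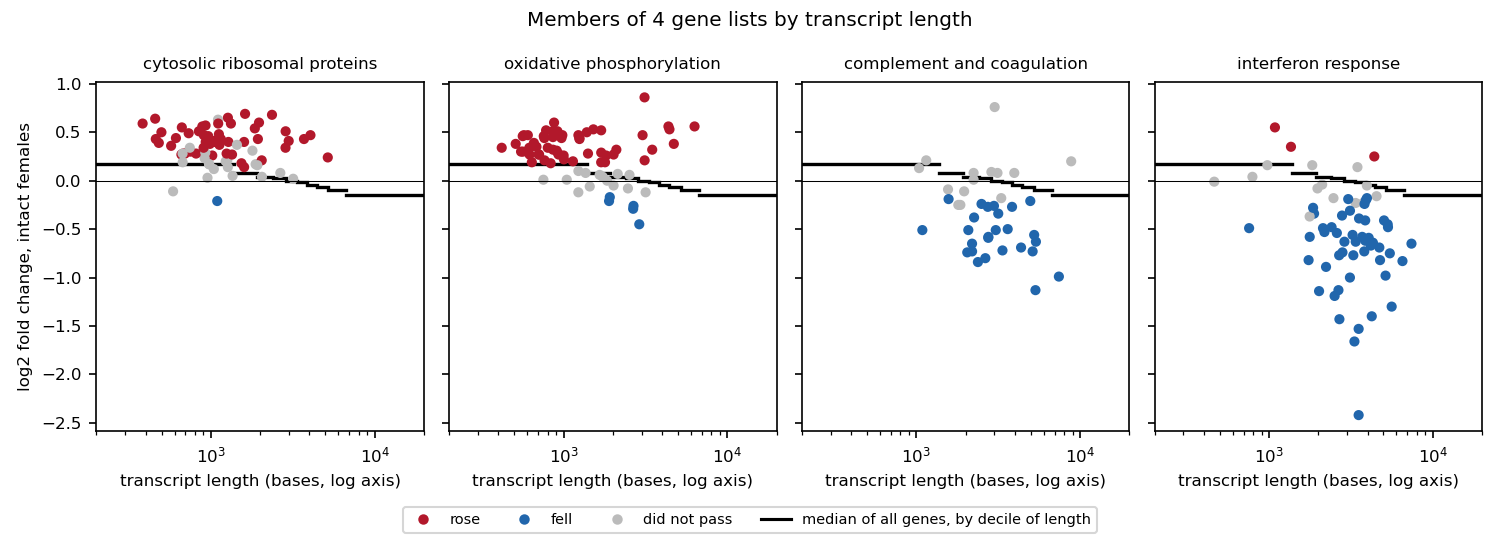
Members of 4 gene lists by transcript length in bases (log axis) and log2 fold change of dexamethasone over vehicle in intact females; red rose, blue fell, grey did not pass, and black steps are the median of all genes in each decile of length. Most ribosomal and respiratory members lie above the steps, whereas interferon and complement members lie mostly below the steps at the same lengths.

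Growth genes changed without a common direction. Of 12 cell cycle inhibitors measured, 4 rose and 2 fell; Cdkn1a, which encodes p21, rose by 2.4 ± 0.36 and Gadd45b by 1.41 ± 0.35, while Gadd45a fell by 0.71 ± 0.2. Of 34 cell cycle genes, 2 rose (5 without dexamethasone replicate 2, and 1 without dexamethasone replicate 3 or any 1 vehicle replicate) and 9 fell, including Ccnd1, cyclin D1 (fell by 0.92 ± 0.16), and the helicase subunits Mcm5 and Mcm6 (fell by 0.9 ± 0.21 and 0.87 ± 0.17). Of 17 translation and mTORC1 genes, 3 rose and 8 fell. Eif4ebp3, a repressor of cap-dependent translation, had 13.01, 12.87 and 13.02, against 10.28, 10.16 and 9.97, 7.11-fold higher, but is uncertain, since 67.3% of its exon sequence overlaps another gene. Ddit4, which restrains mTORC1, rose by 1.62 ± 0.38, and Mtor and Eif4ebp2 fell by 0.63 ± 0.1 and 1.29 ± 0.091. Of 16 phosphatases and feedback inhibitors of MAP kinase signalling, 5 rose and 5 fell: Dusp1, which inactivates p38 and JNK, rose by 1.88 ± 0.21, and Dusp6 and Spry4, which act on the ERK pathway, fell by 1.36 ± 0.15 and 1.54 ± 0.28.

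Of 22 genes known to be higher near the central vein of the lobule, 0 rose and 12 fell, and of 22 known to be higher near the portal tract, 7 rose and 6 fell. Markers of other liver cells moved with treatment as well. Of 20 stellate cell and fibroblast markers, 12 rose and 1 fell (3 fell without vehicle replicate 2, and 0 without dexamethasone replicate 3 or vehicle replicate 3), and their summed level was 14.52 to 14.71 in the dexamethasone libraries, against 13.81 to 14.18 in the vehicle libraries. Pdgfra rose by 0.95 ± 0.12 and Timp3 by 0.78 ± 0.18, while the markers most particular to quiescent stellate cells, Lrat and Reln, stood at -0.14 and 0.13 (adjusted p = 0.71 and 0.416). Of 22 sinusoidal endothelial markers, 7 rose (11 with the length and GC trend removed) and 1 fell, with a summed level of 14.25 to 14.54 against 13.87 to 14.03. Lyve1 rose by 1.56 ± 0.27 and Kdr fell by 0.46 ± 0.1. Of 19 Kupffer cell and macrophage markers, 0 rose and 8 fell, at 14.5 to 14.55 against 14.69 to 14.75. Clec4f, the marker held to be restricted to Kupffer cells, stood at 0.06 (adjusted p = 0.574), and Csf1r fell by 0.41 ± 0.074. Of 8 B cell markers, 0 rose and 7 fell, at 8.52 to 8.6 against 8.94 to 9.29. Of 12 T and NK cell markers, 0 rose and 0 fell by limma (2 rose without vehicle replicate 2, and 1 fell without dexamethasone replicate 3), and the summed levels overlapped, 8.62 to 8.73 against 8.58 to 8.74; Cd3d, Cd8a and Trac were not among the genes tested. Of 14 neutrophil markers 4 were measured, and Lcn2, which hepatocytes also make, was the 1 that rose, with S100a8 at -0.25 and S100a9 at -0.1 (adjusted p = 0.408 and 0.731). The part of these cells in the changes of immune and matrix genes was not tested.

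The response of intact females differed from that of ovariectomized females for 24.9% of genes (9.65% with a higher and 15.3% with a lower value in intact females), by limma on the difference of the 2 responses, which share no libraries. In ovariectomized females 21.3% of genes rose and 19.4% fell. The intact response was the higher one for immediate early genes: 11 of 17 differed that way. Nr4a1 (Entrez 15370), an orphan nuclear receptor induced within minutes of a stimulus, had levels of 6.64, 6.47 and 6.53 in the dexamethasone libraries, against 6.36, 6.63 and 6.54 in the vehicle libraries of intact females. In ovariectomized females its levels were 6.42, 6.46 and 6.6 with dexamethasone, against 11.26, 10.3 and 11.87 with vehicle. The change was 0.04 ± 0.28 in intact females and -4.65 ± 0.28 in ovariectomized females, and the difference 4.69 ± 0.39 (adjusted p = 0.000148) came with vehicle levels in ovariectomized females that were above those of the other 3 groups. Jun rose in intact females, by 0.78, while Atf3 and Fos stood at 0.57 and 0.49 there (adjusted p = 0.149 and 0.22; 0.0316 for Atf3 without dexamethasone replicate 2 of intact females and 0.0269 for Fos without vehicle replicate 3 of ovariectomized females). Atf3, Fos and Jun stood at -1.41, -1.08 and -0.54 in ovariectomized females.

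Of the ribosomal protein genes, 25 had a higher and 1 a lower response in intact females, and of the respiratory genes 39 had a higher and 5 a lower one; in ovariectomized females 6 and 7 of them rose. Of complement and coagulation genes, 15 had a lower response in intact females. These list counts were not taken again with the length and GC trend removed. Over all genes, 781 of the 1251 higher and 1328 of the 1983 lower responses passed again with that trend removed. Under quantile normalization, 947 and 1296 did. Gpam stood at -1.63 ± 0.19 in intact and -0.01 ± 0.19 in ovariectomized females, a difference of -1.62 ± 0.27 (adjusted p = 0.002). Masp1 stood at -1.13 and 0.38, and Il6ra, the interleukin 6 receptor, at -0.26 and 1.54. Nr3c1 fell in intact females (-0.57) and stood at -0.03 in ovariectomized females (adjusted p = 0.636); its vehicle level averaged 11.38 in intact females, against 10.95 in ovariectomized females. Fkbp5 changed by 1.28 and 2.29. The differences of Nr3c1 and Fkbp5 were -0.54 ± 0.077 and -1.01 ± 0.31 (adjusted p = 0.00101 and 0.0332). For Fam107a, Cyp2b10, Mt1 and Serpina6 no difference was shown, with values of -0.45 ± 0.49, -0.31 ± 0.19, -0.15 ± 0.32 and -0.16 ± 0.3.

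**Figure D5:**
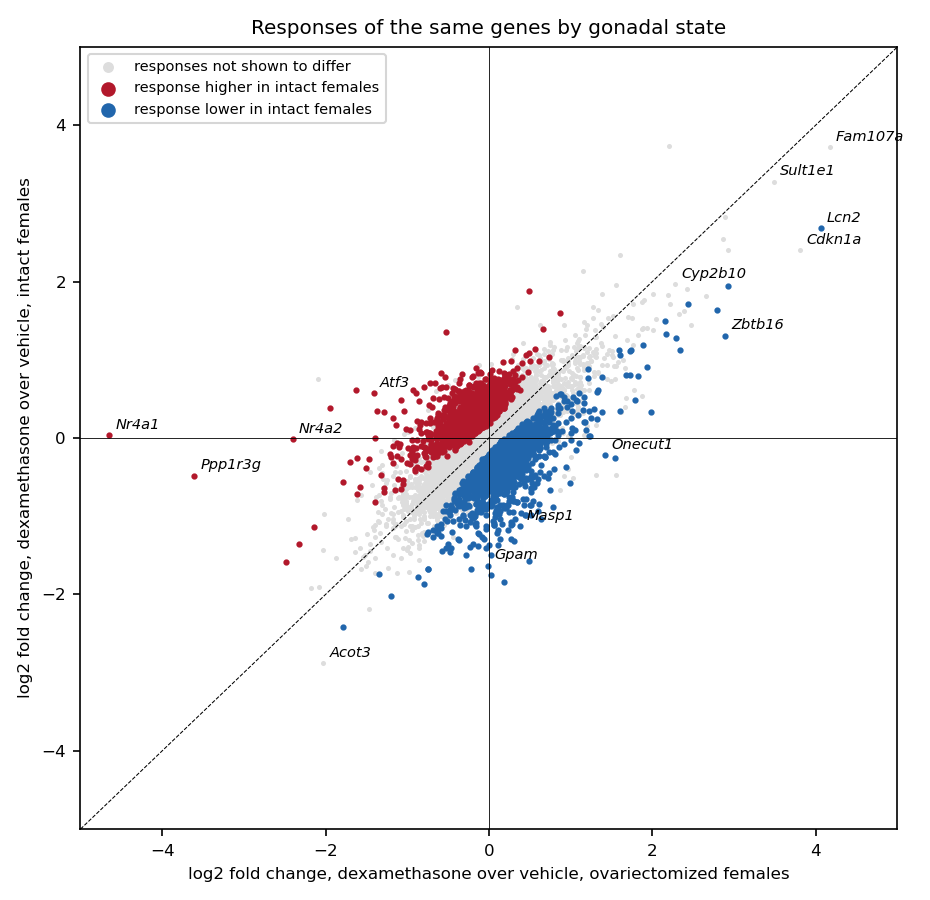
Log2 fold change of dexamethasone over vehicle for each gene in intact females (vertical) and in ovariectomized females (horizontal), with the dashed line where the values are equal; red genes had a higher and blue genes a lower response in intact females by limma's test of the difference. Nr4a1 and Nr4a2 lie near 0 on the vertical axis and, with Ppp1r3g, far left on the horizontal axis.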

How the data were processed

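Per the labels' protocols, liver RNA taken up in TRIzol was cleaned with an RNeasy kit, and Illumina TruSeq libraries were sequenced on a NextSeq instrument. Trim Galore, TopHat2, HTSeq, DESeq and DESeq2 and the build mm9 are named, without versions, in the submitters' processing notes. Log2 values per gene were deposited as 1 table, which the authors derived from normalized counts per the labels; how they were transformed is not given in the sources used here. Values of low genes may be compressed, so their changes may be understated.

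The table's 24962 entries cover 24033 symbols; each of 392 repeated symbols was read from its highest-mean entry. Tested genes averaged at least 4. All libraries entered 1 limma model by group (limma 3.58.1; R 4.3.3; lmFit, eBayes with a variance trend, two-sided, 8 residual degrees of freedom), with calls at an adjusted p under 0.05 (Benjamini-Hochberg). Lists were only counted. The members and lists were chosen with earlier results of these data known. Named genes are the 20 largest rises and falls, the 10 with the largest statistics each way, the 6 largest changes each way among the 200 most abundant, up to 4 per list and role, and the 10 largest differences between responses each way. Of the genes so taken some are left out for brevity or not reported here; others named in the text, including members that did not pass, were chosen after their values were seen. Clone and locus symbols were passed over (3 rises, 2 falls and 1 difference). Shared 50-base words, exon overlap and length came from GRCm38 transcripts for 99.5% of genes, and promoters from RefSeq; the builds differ from the table's, so no measured value is tied to a coordinate. The fit was tested on simulated data with 200 changed genes. It recovered 26% of changes of 0.3, 80% of those of 0.5 and 94% of those of 1, with 11 false calls. Far fewer genes were changed there than were called here, so these shares may differ for the measured data. Alternatives were other filters, scalings and variance models, and each library left out.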

Additional observations from a re-analysis of the deposited data

Results flagged for a closer look

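Genes are given here because their response to dexamethasone differed between intact and ovariectomized females by limma's test of the difference (Benjamini-Hochberg adjusted p under 0.05 over all genes tested, n = 3 libraries per group). Values are the response of intact females minus that of ovariectomized females on the log2 scale, so a positive value is a higher response in intact females; 24.9% of all genes tested passed this test, and the cause of the differences was not tested. Among the glucocorticoid receptor, its machinery and its known targets, the difference was 1.39 for Dusp1, 0.92 for G6pc and 0.51 for Ptges3, whereas it was -1.58 for Zbtb16, -1.38 for Lcn2, -1.01 for Fkbp5, -0.97 for Klf9, -0.82 for Abcb1a, -0.66 for Akr1d1, -0.61 for Tdo2, -0.54 for Nr3c1, -0.43 for Ncor1 and -0.42 for Ncoa2. Among glucose and insulin genes, the difference was 3.12 for Ppp1r3g, 0.6 for Pck2 and 0.58 for Irs1, whereas it was -0.92 for Ppp1r3b. Among amino acid genes, the difference was 0.57 for Slc1a5, whereas it was -1.04 for Slc43a1, -0.87 for Aass and -0.34 for Otc. Among lipid and cholesterol genes, the difference was 0.4 for Apoc3, whereas it was -1.62 for Gpam, -1.09 for Fads2, -0.75 for Ppara, -0.73 for Plin5, -0.65 for Insig2, -0.65 for Cpt1a, -0.64 for Apob and -0.53 for Hadha. Among bile acid, transport and conjugation genes, the difference was -1.46 for Ugt1a1, -0.92 for Slc22a26, -0.76 for Abcc2, -0.66 for Slc16a12, -0.56 for Cyp2c29 and -0.46 for Sult1d1. Among immediate early, phosphatase and growth genes, the difference was 4.69 for Nr4a1, 2.39 for Nr4a2, 1.98 for Atf3, 1.58 for Fos, 1.33 for Jun, 0.97 for Dusp6 and 0.91 for Gadd45a, whereas it was -1.23 for Eif4ebp2 and -0.48 for Mtor. Among interferon, complement and acute phase genes, the difference was 0.52 for Isg20, whereas it was -1.8 for Il6ra, -1.51 for Masp1, -1.15 for Saa1, -0.87 for Fga, -0.82 for C3, -0.77 for F5, -0.68 for Itih4, -0.63 for Gbp10 and -0.62 for Saa4. Among respiratory chain genes, the difference was 0.58 for Cycs, 0.53 for Atp5l and 0.5 for Ndufa5, whereas it was -0.5 for Sdha and -0.41 for Ndufs1. Among other genes named, the difference was 1.07 for S100a9, 0.73 for Htra3 and 0.3 for Crip2, whereas it was -1.2 for Ndst1, -0.95 for Abca3, -0.94 for Rnf24, -0.75 for Pzp, -0.59 for Ces1d, -0.49 for Dsg2, -0.43 for Clock and -0.34 for Ghr.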

How the results depend on the processing

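With a minimum absolute log2 fold change of 1, 135 genes rose and 178 fell in intact females, 200 rose and 159 fell in ovariectomized females, and 53 and 112 responses were higher and lower in intact females. With library weights, 3008 and 3651 responses were higher and lower. The weights of dexamethasone replicates 1, 2 and 3 of intact females were 7.25, 0.57 and 0.33. Weighted values of that group therefore rest mostly on replicate 1. Leaving out 1 library at a time gave 741 to 1404 higher and 1433 to 2116 lower responses; the count of higher ones was 741 without dexamethasone replicate 1 and 822 without vehicle replicate 1 of intact females. It gave 2379 to 2957 rises and 2835 to 3334 falls in intact females, and 2065 to 2917 and 1917 to 2706 in ovariectomized females. Recentring, quantile normalization and removal of the length and GC trend gave 3048, 3163 and 3004 rises and 3306, 3075 and 3124 falls in intact females. With that trend removed, 2403 of the 2959 rises and 2749 of the 3364 falls passed again. In the same order, these 3 settings gave 1519, 1308 and 1051 higher and 1744, 1419 and 1574 lower responses in intact females. With the replicate number as a block there were 2925 rises and 3316 falls. Same-numbered dexamethasone and vehicle libraries of intact females correlated at -0.23, 0.19 and 0.13 in their deviations. Differently numbered ones correlated at -0.24 to 0.18. With 3 libraries per group, these values cannot show whether equal numbers mark a shared batch. Of the named genes, those that turned sign did not pass the test in intact females: with the length and GC trend removed, B2m at -0.12, Nr4a1 at -0.04 and Nr4a2 at 0.05; with library weights, Lrat at 0.28, Nr4a2 at 0.02 and Pck1 at 0.04; under quantile normalization, Cyp3a11 at 0.05 and Nr1i2 at 0.01. With 1 library left out in turn, B2m ranged from -0.03 to 0.03, Cyp3a11 from -0.14 to 0.04, Klf9 from -0.23 to 0.11, Lrat from -0.39 to 0.3, Nr4a1 from -0.03 to 0.1, Nr4a2 from -0.04 to 0.03, Pck1 from -0.34 to 0.05, Reln from -0.02 to 0.21 and S100a9 from -0.25 to 0.08. Of the genes that did not pass in intact females, Cyp3a11, Igf1 and Nfkbia passed with library weights, at -0.18, -0.23 and -0.21 (adjusted p = 0.0485, 0.0202 and 0.0442). So did Fasn, Fgf21, Slc10a1 and Cyp4a10, at -0.79, 1.11, -0.31 and 0.35 (adjusted p = 0.00828, 0.00732, 0.00894 and 0.0235 by limma). Among list counts beyond those given with the lists, library weights, with 4135 rises and 4425 falls over all genes, gave 7 amino acid transporters, 14 cell cycle genes, 8 phosphatases and feedback inhibitors and 10 respiratory genes that fell, and 14 amino acid catabolism genes, 7 cell cycle inhibitors, 6 droplet and lipase genes and 7 cytokine genes that rose. Under quantile normalization 8 genes of the receptor's machinery and 6 of fatty acid oxidation rose, and 3 amino acid catabolism, 2 droplet and 2 respiratory genes fell. With the length and GC trend removed, 3 amino acid catabolism genes and 1 interleukin 6 signalling gene fell. Of 3 B cell markers with a mean of at least 6, 2 fell. Of 12 bile duct cell markers, 4 rose without the variance trend and 6 with library weights. The cause of these shifts was not tested.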
